A study of Mus musculus with 47 samples.

Results

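The cerebellum of transgenic mice kept under the control treatment was compared with that of wild-type mice under the same treatment, gene by gene. The comparison rests on 7 of the 47 bead arrays of the series, 4 from transgenic and 3 from wild-type mice, chosen by their labels for region, genotype and treatment. The transgenic mice carried the R6/2(300Q) transgene, which in this line of mice drives a fragment of the human huntingtin gene with a greatly expanded CAG repeat from the human huntingtin promoter, and it is used as a model of Huntington's disease. The wild-type mice had no transgene. All mice were labelled as CBA x C57BL/6 crosses. Both sexes were used, with 2 males and 2 females on the transgenic arrays and 2 males and 1 female on the wild-type arrays, and a Y-linked gene separated the labelled sexes on 15 of 15 cerebellum arrays. The other cerebellum arrays, 4 transgenic and 4 wild-type, came from mice given the histone deacetylase inhibitor 4b at 1 mg/ml for 67 days in place of drinking water from 4 months of age. What the control mice drank and their age at collection are not given in the labels. The labels do not say that each array is a separate mouse, so the p-values below measure the spread between arrays, which may in part be technical. For the cerebellum that spread was pooled over all 15 arrays, those of 4b-treated mice included, and is not that of the 7 arrays alone.

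The cerebellum is built mainly of small granule neurons, which excite the large Purkinje neurons, and of inhibitory interneurons that restrain both. Its white matter is wrapped in myelin by oligodendrocytes, and the fluid-secreting choroid plexus of the hindbrain ventricle lies against it. Mutant huntingtin fragments form nuclear inclusions in many neurons of R6/2 mice and are known to disturb transcription. In patients with the disease the projection neurons of the striatum are lost first.

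The tissue label was borne out by its markers. The Purkinje cell gene Pcp2 averaged 14.1 log2 units over the 7 arrays, against 6.69 in striatum and 7.68 in cortex of control mice, and the granule neuron gene Gabra6 averaged 9.46, against 5.96 in striatum and 6.07 in cortex. The probes for Calb1, with a mean of 6.39, and Car8, with a mean of 6.03, lay at background in every region and report nothing on Purkinje cells. Background was read from 3 Y-linked genes on 26 female arrays, which averaged 6.30 ± 0.20 log2 units (SD) and reached at most 6.75. The striatal gene Drd1 averaged 6.90 and the cortical gene Tbr1 6.85. The cortical marker Lamp5, also known from inhibitory neurons, ranged from 7.49 to 12.9 over the 7 arrays, with the highest value on wild-type array 1.

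Some wild-type control arrays stood apart, and this touches every result that follows. Markers of neurons of the deep nuclei and brainstem averaged 8.73 to 9.04 on the transgenic arrays, against 10.8 on wild-type array 1 and 8.999 and 8.93 on wild-type arrays 2 and 4. The hindbrain patterning gene Hoxb5, picked out after its values were seen, read 6.75 to 7.65 on the transgenic arrays, against 12.93 on wild-type array 1 and 6.61 and 6.76 on wild-type arrays 2 and 4. Blood and marrow genes averaged 7.73 to 8.22 on the transgenic arrays, against 11.2 on wild-type array 4 and 8.46 and 7.80 on wild-type arrays 1 and 2. Choroid plexus genes averaged 7.49 to 7.83 on the transgenic arrays, against 9.66, 8.32 and 7.64 on wild-type arrays 1, 2 and 4. Each main count is therefore given with and without wild-type arrays 1 and 4. Median probe intensity ran from 148 to 289.3 across the 7 arrays, with the highest on wild-type array 4, and replicate arrays correlated at 0.978 to 0.993 across genes, which are not independent replicates.

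**Figure D1:**
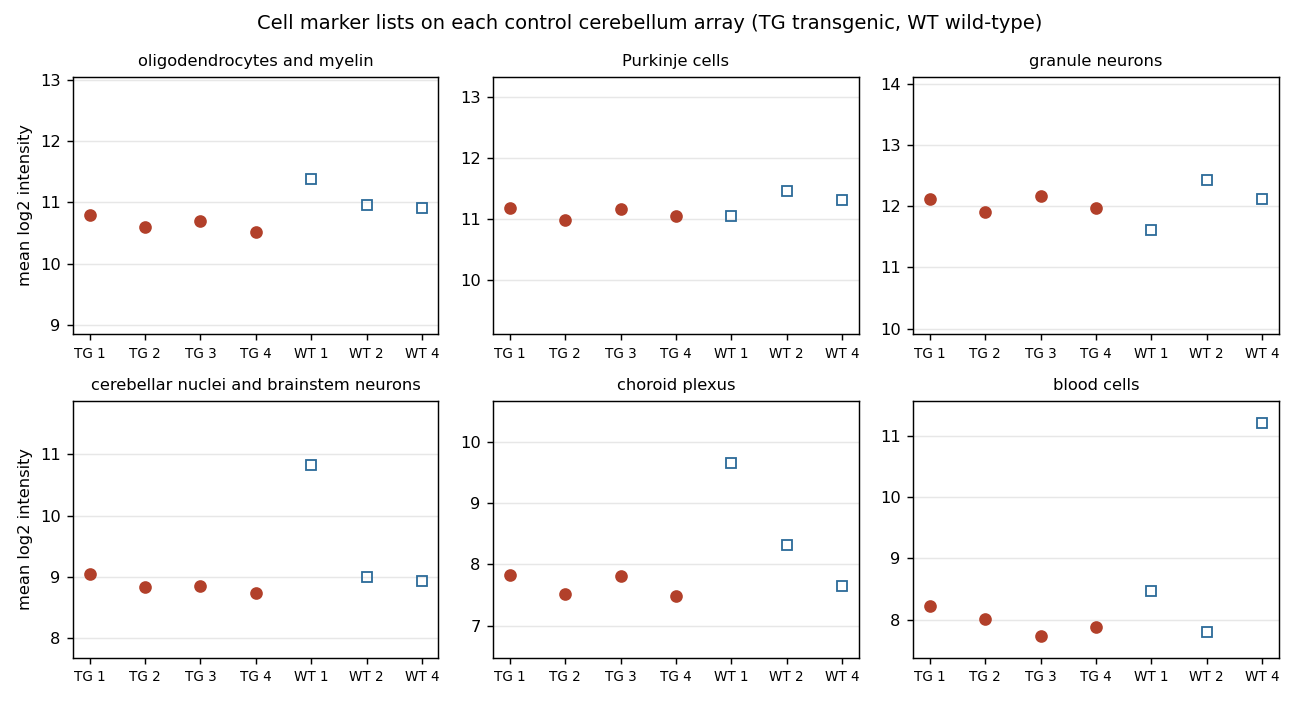
Mean log2 intensity of the tested members of 6 marker lists on each of the 7 control cerebellum arrays, filled circles for transgenic arrays 1 to 4 and open squares for wild-type arrays 1, 2 and 4. Wild-type array 1 is high for nuclei and brainstem neurons (10.8) and choroid plexus (9.66), wild-type array 4 for blood cells (11.2), and all 4 transgenic arrays lie below the 3 wild-type arrays for myelin.

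Of 12049 genes tested in cerebellum, 83 passed an adjusted p of 0.05 with limma, which is 0.689% of those tested. Transgenic cerebellum was higher for 40 of them (0.332%) and lower for 43 (0.357%). The sizes ran from 1.35 to 3.60-fold with a median of 1.69-fold, and 16 genes reached 2-fold, 6 of them higher and 10 lower. Genes that restrain or drive the cell cycle, ion channels, interferon-inducible GTPases and chromatin proteins were among the rises, and myelin lipid and protein genes, an insulin-like growth factor binding protein and a polo-like kinase were among the falls. On all 83 the groups did not overlap, beside 937 of 12049 genes (7.78%) without overlap in all (4.82% higher and 2.95% lower). The unnamed probes among the calls numbered 11, with 10 higher and 1 lower, and in 6 calls the lower of both means lay within background. The median difference over all tested genes was 0.03 log2 units, and 55.6% of genes lay above 0. Scaling arrays by their medians in place of quantiles gave 49 calls, of which 30 were higher, so the near-even split between rises and falls depended on the scaling.

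The count also depended on single arrays. Without wild-type array 4 it was 24, of which 22 were among the 83, and without wild-type array 2 it was 135, of which 65 were among them. Without wild-type array 1 it was 82, with 51 shared, and without arrays 1 and 4 together it was 70, with 21 shared. Leaving out transgenic array 4 gave 42 calls. With a fit on the 7 arrays alone 3 genes were called (Plk5, Cdkn2b and Scn11a), and with BeadChip, the physical slide of the array, as a fixed block over the 15 cerebellum arrays 5 were called. Only 1 BeadChip held both groups (transgenic array 3 and wild-type array 2), and on it all 83 genes differed in the same direction as in the main comparison. That direction was fixed beforehand, because the groups did not overlap on any of the 83, so it is no check on the BeadChip. Among the named genes, Kcna6, Dbp, Gbp3 and Acss1 were lost most often when single arrays were left out, and leaving out wild-type array 4 also ended the calls of Plekhg4, Mslnl, Rasd2, Fam107b, Car2, Ugt8a, Ccnd1, Marcks, Jun, Irgm1, Zfp184, Prkcd, Fbl, Celf5 and Acta1 at the 0.05 threshold. Without wild-type array 1, Mobp, Ccnd1, Marcks, Jun, Celf5 and Ovgp1 were no longer called, without wild-type array 2 neither were Prkcd, Fbl, Irgm1 and Rprm, and without transgenic array 4 neither were Zfp184, Prkcd, Fbl, Celf5, Jun, Mobp, Irgm1, Ovgp1 and Rprm. None of the 83 changed sign under any of 23 alternative settings, but leaving out arrays could not change a sign where the groups did not overlap. Cdkn2b, Plk5 and Scn11a were the 3 called in every setting in which they were tested.

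Regulatory sequence is shown for 4 called genes, namely Cdkn2b and Hexim1 among the rises and Plk5 and Igfbp5 among the falls, because all 4 were also called in striatum and cortex, as described further on. They were chosen with their values known. Each stretch holds 250 bases before and 50 bases after the RefSeq start in GRCm38.p6, at chr4:89310983-89311282 on the minus strand for Cdkn2b, chr10:80356209-80356508 on the plus strand for Plk5, chr11:103116075-103116374 on the plus strand for Hexim1 and chr1:72874816-72875115 on the minus strand for Igfbp5. Capitals mark matches, on either strand, to GGGCGG (the GC box bound by Sp factors) or TGACGTCA (the cyclic AMP response element).
Cdkn2b: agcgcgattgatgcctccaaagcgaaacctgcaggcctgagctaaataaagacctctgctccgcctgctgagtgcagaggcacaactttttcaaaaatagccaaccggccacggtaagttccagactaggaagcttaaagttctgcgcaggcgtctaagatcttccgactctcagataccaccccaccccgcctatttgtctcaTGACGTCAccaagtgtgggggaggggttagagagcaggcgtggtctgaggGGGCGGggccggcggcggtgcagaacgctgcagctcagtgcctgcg
Plk5: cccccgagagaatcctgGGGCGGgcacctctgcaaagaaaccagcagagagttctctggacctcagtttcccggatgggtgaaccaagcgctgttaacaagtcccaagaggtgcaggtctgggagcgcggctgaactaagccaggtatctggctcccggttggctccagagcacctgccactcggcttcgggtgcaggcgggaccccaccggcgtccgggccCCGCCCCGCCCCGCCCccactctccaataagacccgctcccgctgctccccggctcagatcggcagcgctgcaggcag
Hexim1: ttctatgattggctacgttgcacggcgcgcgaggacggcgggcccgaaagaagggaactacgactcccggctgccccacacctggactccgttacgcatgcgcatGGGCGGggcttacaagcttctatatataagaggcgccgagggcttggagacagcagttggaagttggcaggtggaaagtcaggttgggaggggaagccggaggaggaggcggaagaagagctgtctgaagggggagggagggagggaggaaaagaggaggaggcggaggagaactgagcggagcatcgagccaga
Igfbp5: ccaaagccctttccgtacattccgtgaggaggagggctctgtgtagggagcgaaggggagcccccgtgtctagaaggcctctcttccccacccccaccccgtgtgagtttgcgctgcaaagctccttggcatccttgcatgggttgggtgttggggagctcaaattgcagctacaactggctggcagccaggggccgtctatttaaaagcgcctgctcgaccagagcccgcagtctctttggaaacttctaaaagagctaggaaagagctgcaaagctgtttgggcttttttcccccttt
Cdkn2b held 1 cyclic AMP response element and 1 GC box, Hexim1 held 1 GC box, Plk5 held 4 GC boxes, of which 3 overlap by a base at their ends, and Igfbp5 held neither. Promoters were matched for 22 called rises and 36 called falls. The GC box was present in 15 of the 22 rises (68.2%) and 21 of the 36 falls (58.3%), beside 66.2% of the tested genes with a promoter and 38.2% of all RefSeq promoters. The cyclic AMP response element was present in 2 of the 22 rises (9.09%) and 0 of the 36 falls, beside 3.4% of the tested genes and 2.03% of all promoters. CACGTG, the E box, was present in 1 rise (4.55%) and 4 falls (11.1%), beside 11.3% of the tested genes and 8.09% of all promoters, and TATAAA, the TATA box, in 3 rises (13.6%) and 2 falls (5.56%), beside 10.1% and 15.7%. These matches describe the letters in the window and are no evidence of binding.

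**Figure D2:**
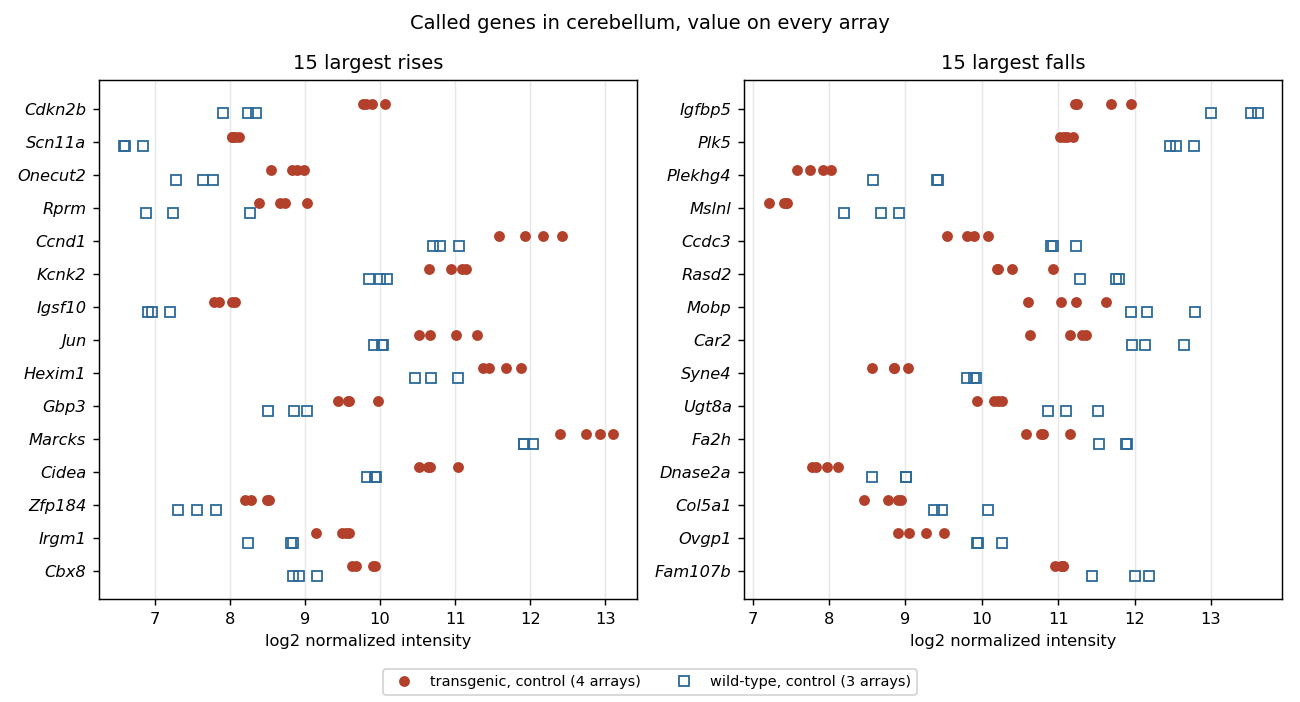
Log2 normalized intensity of the 15 largest rises (left) and the 15 largest falls (right) among called genes, 1 point per array, with filled circles for the 4 transgenic and open squares for the 3 wild-type control arrays. The groups do not overlap for any of the 30 genes, and the means lie farthest apart at Cdkn2b among the rises and at Igfbp5 among the falls.

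Cell cycle regulators gave the largest rise. Cdkn2b, an inhibitor of the cyclin D kinases, read 9.81, 9.90, 10.06 and 9.78 log2 units on the transgenic arrays, against 7.90, 8.35 and 8.24 on the wild-type arrays. All 4 transgenic arrays lay more than a log2 unit above every wild-type array, and the difference was 1.72 ± 0.20 (SE, limma adjusted p = 0.000541), or 3.29-fold. Ccnd1, which encodes cyclin D1, a partner of the kinases that the Cdkn2b protein restrains, read 12.42, 11.58, 12.16 and 11.93 on the transgenic arrays, against 10.79, 10.71 and 11.05 on the wild-type arrays. It was 2.26-fold higher (limma adjusted p = 0.0194), and its other 3 probes differed by 1.04, 0.59 and 1.51 in the same direction. Rprm, which encodes reprimo, a p53-induced mediator of cell cycle arrest, averaged 8.70 ± 0.27 on transgenic and 7.46 ± 0.72 on wild-type arrays (SD, limma adjusted p = 0.0415). Its wild-type arrays were spread out, with array 1 at 8.27, close below the lowest transgenic array at 8.38, and without wild-type array 4 it was no longer called (limma adjusted p = 0.144). Of 16 tested genes in a list of cell cycle inhibitors and p53 targets, Cdkn2b alone was called, since Rprm is not on that list. In it 12 genes lay above 0, and the median difference was 0.17.

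Ion channel genes followed. Scn11a, which encodes a sodium channel best known from sensory neurons, read 8.07, 8.03, 8.03 and 8.12 on the transgenic arrays, against 6.60, 6.59 and 6.84 on the wild-type arrays. The transgenic arrays were tightly grouped, while the wild-type mean of 6.68 lay within background, so the 2.61-fold difference (limma adjusted p = 6.42e-05) sets a measured level against one that was not above background. Kcnk2, a leak potassium channel gene, averaged 10.95 ± 0.22 on transgenic and 9.98 ± 0.12 on wild-type arrays (SD, limma adjusted p = 0.00419). Kcna6, a voltage-gated potassium channel gene, moved the other way, with 12.20 ± 0.27 on transgenic and 12.87 ± 0.12 on wild-type arrays (limma adjusted p = 0.0387), and its other 3 probes were also lower. Among 26 tested potassium channel genes 1 rose, 1 fell and 21 lay below 0 (median -0.16), with Kcnc1, the third by p, at 0.46 without passing the test (limma adjusted p = 0.119). Among 6 tested sodium channel genes Scn11a was the 1 called, and the median was 0.13.

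Several transcriptional regulators rose. Onecut2, a homeobox factor of developing neurons, averaged 8.81 ± 0.19 on transgenic and 7.57 ± 0.25 on wild-type arrays (SD, limma adjusted p = 0.00511). Jun, a subunit of the AP-1 factor, read 10.66, 11.29, 10.52 and 11.01 on the transgenic arrays, against 9.92, 10.03 and 10.04 on the wild-type arrays (limma adjusted p = 0.0206). The wild-type arrays were tightly grouped and the transgenic arrays were more spread out. Among 20 tested immediate early genes Jun was the 1 called, and 16 lay below 0 (median -0.14). Jund differed by 0.64 and Nr4a2 by -1.24 without passing the test. The zinc finger gene Zfp184 differed by 0.81 ± 0.14 (SE, limma adjusted p = 0.0141).

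Genes of transcription elongation, Polycomb and the nucleolus each gave a single call. Hexim1, whose protein holds the elongation kinase P-TEFb inactive together with a small nuclear RNA, read 11.46, 11.88, 11.38 and 11.68 on the transgenic arrays, against 10.68, 10.46 and 11.04 on the wild-type arrays (difference 0.87 ± 0.15, SE, limma adjusted p = 0.0137). Of 17 tested elongation genes 14 lay above 0, with a median of 0.12. Cbx8, a chromodomain subunit of a Polycomb complex, averaged 9.78 ± 0.15 on transgenic and 8.98 ± 0.17 on wild-type arrays (SD, limma adjusted p = 0.00704). Of 24 tested Polycomb genes 16 lay above 0 (median 0.10), and Cbx2 at 0.61 and Pcgf1 at 0.35 did not pass the test. Fbl, which encodes fibrillarin, the methyltransferase of ribosomal RNA, averaged 11.89 ± 0.15 on transgenic and 11.20 ± 0.20 on wild-type arrays (SD, limma adjusted p = 0.0212), and 20 of 29 tested nucleolar genes lay above 0 (median 0.05). Celf5, an RNA-binding protein gene of the brain, differed by 0.63 ± 0.12 (SE, limma adjusted p = 0.027), with a wild-type mean of 6.58 that lay within background. That mean and the one of wild-type 4b-treated mice (6.56) were below the filter for testing (6.77). Celf5 passed the filter through its transgenic arrays, with means of 7.20 in control and 7.31 in 4b-treated mice.

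Among interferon-inducible genes Gbp3, Irgm1 and Oas1g rose. Gbp3, a guanylate-binding GTPase of cell defence, averaged 9.64 ± 0.23 on transgenic and 8.80 ± 0.26 on wild-type arrays (SD, limma adjusted p = 0.0478), and was lost when any wild-type array was left out (limma adjusted p = 0.081, 0.104 and 0.064 without arrays 1, 2 and 4). Irgm1, an interferon-inducible GTPase of autophagy and host defence, averaged 9.44 ± 0.20 on transgenic and 8.64 ± 0.34 on wild-type arrays (SD, limma adjusted p = 0.0355), and was lost without wild-type array 2 (0.61, limma adjusted p = 0.0835) or 4 (0.91, limma adjusted p = 0.0538). Oas1g, an oligoadenylate synthetase gene of antiviral defence, named after its values were seen, averaged 7.84 ± 0.21 on transgenic and 7.24 ± 0.12 on wild-type arrays (SD, limma adjusted p = 0.0323), and was lost without wild-type array 2 (0.57, limma adjusted p = 0.0702) or 4 (0.56, limma adjusted p = 0.125). Whether its probe reads other Oas1 copies was not tested. Of 24 tested interferon and antigen presentation genes 1 was called, which was Gbp3, since Irgm1 and Oas1g are not on that list. In it 16 genes lay above 0, and the median was 0.23, beside 0.10 without wild-type array 2 and 0.39 without array 4. Irf7 at 0.52 (limma adjusted p = 0.0603) and Ifi35 at 0.49 (limma adjusted p = 0.0614) lay just outside the threshold. Microglia and complement genes stood beside these at a median of 0.22 over 13 tested members with 11 above 0 and none called. Without wild-type array 2 that median was -0.0025, and without array 4 it was 0.38. Their summed intensity was 9806 to 15825 on transgenic and 6415 to 11693 on wild-type arrays. Transgenic array 1 was the highest for that list. The part of microglia in the interferon values was not tested.

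Among the remaining large rises, Igsf10, an immunoglobulin superfamily gene, averaged 7.94 ± 0.14 on transgenic and 7.03 ± 0.16 on wild-type arrays (SD, limma adjusted p = 0.000431). Marcks, an actin-binding substrate of protein kinase C, averaged 12.79 ± 0.30 on transgenic and 11.95 ± 0.07 on wild-type arrays (limma adjusted p = 0.0194). Cidea, a lipid droplet protein gene best known from fat tissue, averaged 10.72 ± 0.22 on transgenic and 9.90 ± 0.06 on wild-type arrays (limma adjusted p = 0.00511). In all 3 genes the lowest transgenic array was above the highest wild-type array.

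The largest fall was in Igfbp5, which encodes a secreted binding protein of insulin-like growth factors. It read 11.95, 11.22, 11.69 and 11.25 log2 units on the transgenic arrays, against 12.99, 13.52 and 13.61 on the wild-type arrays. The difference was -1.85 ± 0.18 (SE, limma adjusted p = 0.000104), or 3.60-fold lower in transgenic cerebellum, and it ran from -2.04 without wild-type array 1 to -1.73 without wild-type array 4. Of 10 tested genes of this growth factor family Igfbp5 was the 1 called, and the median was 0.02. Igfbp4 lay at 0.89 with a limma adjusted p of 0.171.

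Plk5, a brain-expressed member of the polo-like kinases, gave the smallest p of the comparison. It read 11.08, 11.12, 11.02 and 11.20 on the transgenic arrays, against 12.46, 12.54 and 12.78 on the wild-type arrays, a difference of -1.49 ± 0.11 (SE, limma adjusted p = 6.78e-06). The transgenic arrays were tightly grouped and more than a log2 unit below every wild-type array. The list holds 5 polo-like kinases, all tested, with Plk5 the 1 called and a median of -0.05.

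Myelin and oligodendrocyte genes fell in part. Mobp, a structural protein of compact myelin, read 11.63, 11.23, 11.04 and 10.60 on the transgenic arrays, against 12.78, 12.16 and 11.95 on the wild-type arrays (difference -1.17 ± 0.23, SE, limma adjusted p = 0.0267). Ugt8a, the enzyme that makes the galactolipids of myelin, read 10.21, 10.16, 10.26 and 9.93 on the transgenic arrays, against 11.52, 10.87 and 11.10 on the wild-type arrays (difference -1.02 ± 0.18, limma adjusted p = 0.0137). Fa2h, which hydroxylates the fatty acids of those lipids, read 11.16, 10.78, 10.80 and 10.58 on the transgenic arrays, against 11.90, 11.88 and 11.53 on the wild-type arrays (difference -0.94 ± 0.15, limma adjusted p = 0.00704). In each of these the groups were apart, and wild-type array 1 was the highest of all 7 arrays. Car2, a carbonic anhydrase gene of oligodendrocytes and choroid plexus, averaged 11.11 ± 0.33 on transgenic and 12.25 ± 0.36 on wild-type arrays (SD, limma adjusted p = 0.0137).

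Over the whole list, 4 of 32 tested myelin and oligodendrocyte genes were called, all lower, beside 0.357% of all genes called lower. The median difference was -0.41, 28 members lay below 0, and 12 were below without overlap, beside 2.95% of all genes. Mbp, the gene of myelin basic protein, averaged 14.69 ± 0.08 on transgenic and 14.72 ± 0.06 on wild-type arrays (SD, limma adjusted p = 0.948). The summed intensity of the list was 113241 to 132995 on transgenic and 144505 to 188520 on wild-type arrays. The list count moved with the wild-type arrays: 3 were called lower without array 1, 5 without array 2, 2 without array 4 and 1 without both 1 and 4, which was Fa2h, and the median was -0.24, -0.52, -0.49 and -0.26 in these fits. On the BeadChip shared by both groups the median was -0.23. Genes of nuclei and brainstem neurons, whose level was highest on wild-type array 1, lay at a median of -0.75 over 9 tested members with none called. That median was -0.31 without array 1, -1.06 without array 4 and -0.22 without both, and the list had a summed intensity of 7326 to 8669 on transgenic and 9676 to 35209 on wild-type arrays. Their part in the myelin values was not tested beyond the fits without array 1. In bulk tissue, fewer cells of a type and less RNA per cell cannot be told apart. Oligodendrocyte precursor genes lay at a median of 0.09 over 6 tested members, all above 0 and none called.

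Other falls were spread over different functions. Plekhg4, a guanine nucleotide exchange factor gene, read 7.75, 7.92, 7.58 and 8.03 on the transgenic arrays, against 8.57, 9.43 and 9.41 on the wild-type arrays, a difference of -1.32 ± 0.20 (SE, limma adjusted p = 0.00704). Rasd2, which encodes the small GTPase Rhes that is most abundant in striatum, averaged 10.43 ± 0.34 on transgenic and 11.61 ± 0.28 on wild-type arrays (SD, limma adjusted p = 0.01). Ccdc3, a secreted coiled-coil protein gene, averaged 9.83 ± 0.22 on transgenic and 11.02 ± 0.18 on wild-type arrays (SD, limma adjusted p = 0.00456). Syne4, which encodes a nesprin of the outer nuclear membrane, averaged 8.82 ± 0.19 on transgenic and 9.88 ± 0.06 on wild-type arrays (SD, limma adjusted p = 0.000333). All 4 kept their groups apart. Mslnl, a mesothelin-like gene, differed by -1.22 ± 0.19 (SE, limma adjusted p = 0.00707), and Fam107b by -0.85 ± 0.14 (SE, limma adjusted p = 0.00962). Dnase2a, a lysosomal nuclease gene, differed by -0.94 ± 0.14 (SE, limma adjusted p = 0.00511). Col5a1, a fibrillar collagen gene, differed by -0.88 ± 0.16 (SE, limma adjusted p = 0.0215), and Ovgp1, a glycoprotein of the chitinase-like family, by -0.87 ± 0.18 (SE, limma adjusted p = 0.0323). Without wild-type array 4 Col5a1 differed by -0.66 (limma adjusted p = 0.0754) and Ovgp1 by -0.76 (limma adjusted p = 0.134), and neither was called. Without array 1 Ovgp1 differed by -0.92 (limma adjusted p = 0.0552).

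Clock and metabolic genes gave 2 more falls. Dbp, a clock-controlled transcription factor gene, averaged 12.77 ± 0.37 on transgenic and 13.53 ± 0.03 on wild-type arrays (SD, limma adjusted p = 0.0491), and 1 of 14 tested clock genes was called, with a list median of -0.23. Per2, a core repressor of the clock, lay at -0.74 (limma adjusted p = 0.0771) and Rorb at -0.35, both without overlap. The labels give no time of day of collection. Acss1, which makes acetyl-CoA from acetate in mitochondria, averaged 10.18 ± 0.17 on transgenic and 10.74 ± 0.15 on wild-type arrays (SD, limma adjusted p = 0.0455). It was the 1 called among 22 tested fatty acid and acetyl-CoA enzymes, of which 17 lay below 0 (median -0.07), with Elovl7 at -0.59 and Fads1 at -0.35 not passing the test.

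Among neuronal markers of the cerebellum 1 gene, Prkcd, passed the test. Of 16 tested Purkinje cell genes none was called, 11 lay below 0 and the median was -0.14, with Plcb3 at -0.44, Rgs8 at -0.53 and Lhx5 at -0.47, while Pcp2 averaged 14.12 ± 0.13 on transgenic and 14.02 ± 0.33 on wild-type arrays (SD, limma adjusted p = 0.86). Without wild-type array 1 that median was -0.32 with 1 gene called lower, and in 4b-treated mice it was -0.27 with 4 called lower. Of 17 tested granule neuron genes none was called and the median was -0.06, with Gabra6 at 9.40 ± 0.38 on transgenic and 9.56 ± 0.62 on wild-type arrays and Calb2 at 0.40 (limma adjusted p = 0.062). The granule neuron median was -0.30 without wild-type array 1 and 0.18 without array 2, with 1 gene called higher in the second of these fits. Its list mean was lowest on array 1 (11.9 to 12.2 on transgenic arrays, against 11.6 on that array and 12.4 and 12.1 on wild-type arrays 2 and 4). All 12 tested genes of cerebellar interneurons lay below 0 (median -0.31), and Prkcd, a protein kinase C isoform, was the 1 called, at 10.23 ± 0.07 on transgenic and 10.96 ± 0.27 on wild-type arrays (SD, limma adjusted p = 0.0213). Of the 12, 5 were below without overlap. The median was -0.45 without wild-type array 1, with 2 called lower, and -0.48 without arrays 1 and 4. It was -0.22 without array 2, with 1 called lower, and -0.24 without array 4, with none called. The interneuron list mean was 10.81 to 10.99 on transgenic and 11.09 to 11.34 on wild-type arrays. Nxph1 at -0.72 (limma adjusted p = 0.0538) and Lgi2 at -0.48 did not pass the test. A p that misses the threshold does not show that these levels were equal.

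Glial markers other than myelin gave no call. Of 21 tested genes of astrocytes and Bergmann glia, 18 lay below 0 (median -0.19), with the gap junction gene Gja1 at -0.36, Sparcl1 at -0.63, Ntsr2 at -0.63 and Gfap at -0.18 (limma adjusted p = 0.785). The mean of that list was 10.92 to 11.05 on transgenic and 11.11 to 11.30 on wild-type arrays. Among microglia genes C1qb lay at 0.67, Ctss at 0.32 and Trem2 at 0.58, and Aif1 averaged 7.82 ± 0.61 on transgenic and 7.81 ± 0.39 on wild-type arrays. All 17 tested choroid plexus genes lay below 0 (median -0.69, none called), with Aqp1 at -2.18 and Clic6 at -1.77. That median was -0.19 without wild-type array 1, and 1.07 in 4b-treated mice with none called. The summed intensity was 4434 to 15592 on transgenic and 5073 to 40488 on wild-type arrays. All 13 tested blood genes lay below 0 as well (median -1.26, none called), and without wild-type array 4 that median was -0.19. Endothelial and mural cell genes lay at a median of 0.04 over 14 tested members, and genes of meninges and fibroblasts at 0.01 over 10, with none called in either. Of genes that bear on the study's agents, mouse Htt averaged 8.59 ± 0.05 on transgenic and 8.61 ± 0.14 on wild-type arrays (limma adjusted p = 0.964). Whether its probe reads the human transgene was not tested. Hdac1, a histone deacetylase gene, differed by 0.48 (limma adjusted p = 0.142) and Hdac3 by -0.07 (limma adjusted p = 0.869).

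The remaining gene lists held no called gene, with medians between -0.14 and 0.10. Calcium signalling genes lay at a median of -0.05 over 34 tested members, GABA-A receptor genes at -0.14 over 7, and glutamate receptors and their scaffolds at -0.09 over 22. Heat shock proteins and chaperones lay at -0.10 over 27, proteasome subunits at 0.10 over 29 with 24 above 0, and subunits of the respiratory chain at 0.03 over 46. Cholesterol synthesis genes lay at -0.09 over 18, glutathione S-transferases at -0.09 over 17 and glucocorticoid response genes at 0.06 over 17. Genes of other polyglutamine diseases lay at 0.05 over 6, histone deacetylases and their corepressors at 0.07 over 24, and developmental transcription factors at -0.02 over 40.

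**Figure D3:**
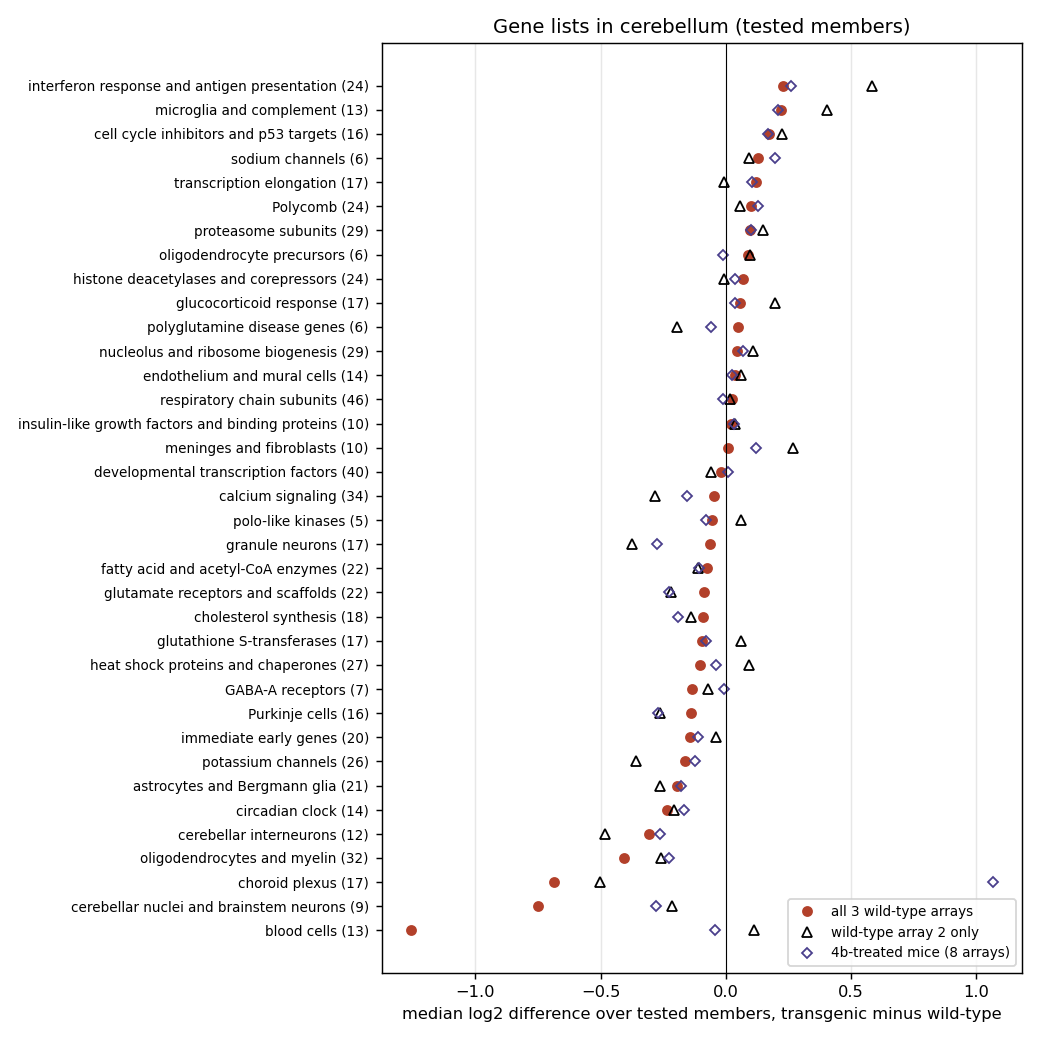
Median log2 difference, transgenic minus wild-type, over the tested members of each of 36 gene lists (number tested in brackets), with filled circles for the control comparison, open triangles with wild-type array 2 as the only wild-type control array, and open diamonds for the 4b-treated mice. Blood genes lie at -1.26 with all arrays and at 0.11 with wild-type array 2 alone, while myelin genes lie at -0.41, -0.26 and, in 4b-treated mice, -0.22.

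The same genotype contrast in 4b-treated mice rests on 8 other arrays and so shows the genes above in samples that the control comparison did not use, although both contrasts come from 1 fit and share its estimate of spread. In these mice 174 of 12049 genes were called (1.44%), 51 higher (0.423%) and 123 lower (1.02%). Of the 83 control calls, 82 differed in the same direction and 40 were also called, 19 higher and 21 lower. Those 40 are 48.2% of the control calls and 22.99% of the 4b-treated calls. The difference was smaller under 4b for 70 of the 83, with median sizes of 0.50 under 4b and 0.76 under the control treatment. In the mirror count, the difference was smaller in control mice for 142 of the 174 genes called under 4b. Each set was selected on one of the differences compared, so both counts are descriptions. Fitted on the 8 arrays alone, the 4b-treated contrast called 621 genes, 54 of the 83 among them.

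Plk5 and Igfbp5 differed by -1.55 and -1.74 in the 4b-treated mice (limma adjusted p = 1.36e-06 and 0.000126). Scn11a differed by 0.94 (limma adjusted p = 0.00131), Hexim1 by 0.90 (limma adjusted p = 0.00702), and Onecut2 and Rprm by 1.59 and 1.56, more than in control mice. Cdkn2b averaged 9.39 ± 0.43 on transgenic and 8.57 ± 0.23 on wild-type arrays of 4b-treated mice (SD, n = 4 each, limma adjusted p = 0.034), a difference of 0.83. Among the myelin genes, Ugt8a at -0.99 and Fa2h at -0.79 were called again, while Mobp at -0.52 (limma adjusted p = 0.316) and Car2 at -0.25 (limma adjusted p = 0.644) were not. Ccdc3 at -0.33, Jun at 0.23 and Cbx8 at 0.32 passed the test in control mice and not under 4b. A direct test of the difference between treatments called 0 of 12049 genes with limma, with 383 at an unadjusted p under 0.05, so none of these genes was shown to differ in its genotype effect between treatments. The smallest p in that test belonged to Prune1, Ntn4 and Trappc5, none of them called. Without wild-type arrays 1 and 4 it called 5, all with a more positive difference in control mice, namely B3galt6, Casp9, Eya3, Fastkd3 and 1 unnamed probe, which were named after their values were seen. On wild-type array 2, the only wild-type control array in that fit, Casp9 was at 6.76, where the transgenic arrays read 10.35 to 10.65 and wild-type arrays 1 and 4 read 10.30 and 10.67.

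**Figure D4:**
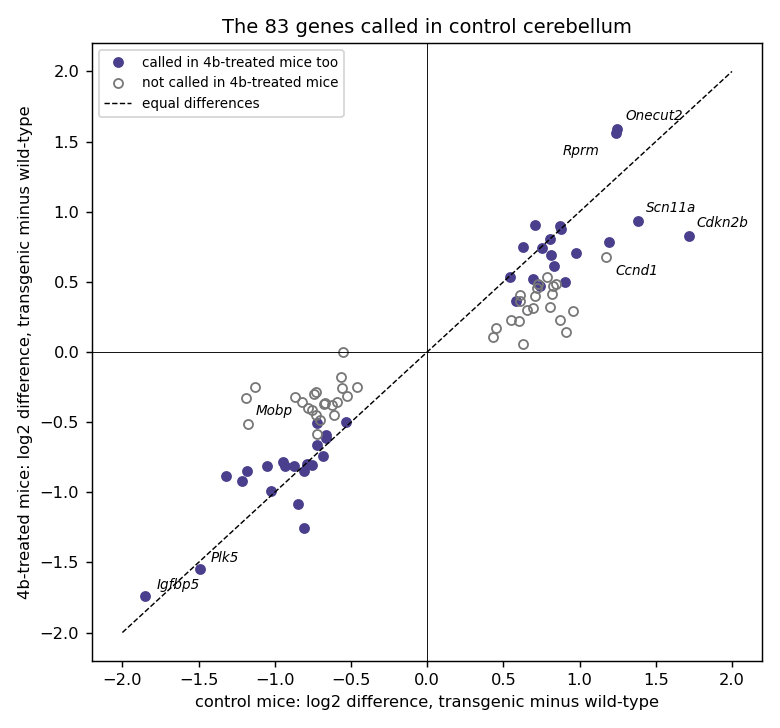
Log2 difference, transgenic minus wild-type, of each of the 83 genes called in control cerebellum, in control mice (horizontal) and in 4b-treated mice (vertical), with filled points for the 40 also called in 4b-treated mice and a dashed line of equal differences. Most points lie in the same quadrant on both axes and 70 of 83 lie closer to 0 in 4b-treated mice, as do 142 of the 174 genes called under 4b in control mice, which are not plotted, with Plk5 and Igfbp5 close to the line.

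Striatum and cortex of control mice show which of the genes differed elsewhere in the brain. Their genotype contrasts, from 4 arrays a group, called 455 of 12030 genes in striatum (3.78%; 1.44% higher and 2.34% lower) and 614 of 12052 in cortex (5.09%; 1.58% higher and 3.52% lower), and whether a mouse gave more than 1 region is not stated in the labels. Of the 83 cerebellar calls 77 were tested in striatum, where 57 had the same sign and 18 were called in the same direction and 0 in the opposite one. In cortex 76 were tested, 64 had the same sign, 24 were called in the same direction and 1 in the opposite one. That one was Acta1, the skeletal muscle actin gene, at 0.70 in cerebellum and -0.46 in cortex (limma adjusted p = 0.0281 and 0.0264). The shared genes are 21.7% and 28.9% of the cerebellar calls, and 3.96% and 3.91% of the striatal and cortical calls.

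Called in all 3 regions in the same direction were 10, of which 8 have a symbol. Cdkn2b differed by 1.72 in cerebellum, 0.49 in striatum and 0.43 in cortex. Hexim1 differed by 0.87, 0.94 and 0.61, Cbx8 by 0.81, 0.52 and 0.39, Fbl by 0.69, 0.46 and 0.53, and Celf5 by 0.63, 1.16 and 1.11, in the same order of regions. The cerebellar value of Celf5 sets a measured level against a wild-type mean within background (6.58). Plk5 differed by -1.49, -1.02 and -1.98, Igfbp5 by -1.85, -0.92 and -0.81, and Acss1 by -0.56, -0.59 and -0.67. For Cdkn2b the rise in cerebellum exceeded that in striatum by 1.23 and that in cortex by 1.29 (limma adjusted p = 0.000337 and 0.000131). No such regional difference was called for the other 7 named genes. Igfbp5 lay just outside the threshold, at -0.93 against striatum and -1.04 against cortex (limma adjusted p = 0.0651 and 0.0512).

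**Figure D5:**
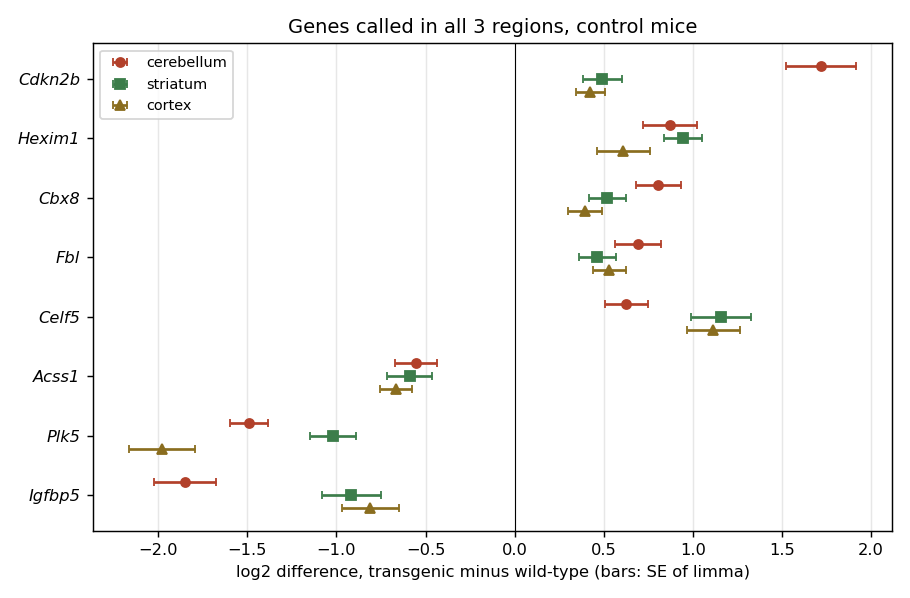
Log2 difference, transgenic minus wild-type, of the 8 named genes called in all 3 regions of control mice, with circles for cerebellum, squares for striatum and triangles for cortex, and bars of 1 standard error from limma. The rise of Cdkn2b is larger in cerebellum (1.72) than in striatum (0.49) or cortex (0.43), and the other genes keep their direction in all regions. The wild-type mean of Celf5 in cerebellum (6.58) lies within background.

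Differences between regions were tested directly over all 47 arrays. The genotype difference in cerebellum departed from that in striatum for 104 of 11501 genes (0.904%), 69 of them higher (0.6%) and 35 lower (0.304%), and from that in cortex for 43 of 11505 (0.374%), 26 higher (0.226%) and 17 lower (0.148%). Among the 83 cerebellar calls, 19 of the 77 tested in striatum departed from it, and 13 of the 76 tested in cortex. The 83 were selected on the cerebellar difference, which is part of both contrasts, so these counts are descriptions. Without wild-type arrays 1 and 4 the counts over all genes were 50 and 53, and without wild-type array 2 they were 318 and 132. Scn11a rose in cerebellum and differed by -0.06 in striatum (difference between regions 1.45, limma adjusted p = 1.18e-08). Kcnk2 rose in cerebellum, with -0.35 in striatum and -0.10 in cortex, and departed from both (1.32 and 1.07). Onecut2 departed from striatum (1.26), where its transgenic and wild-type means were 9.82 and 9.84, while in cortex it was also called higher (0.80). Cidea (0.89) departed from striatum, and Igsf10 (0.71 and 0.81) from both regions. Among the falls, Rasd2 (-1.18) and Dnase2a (-1.10) departed from striatum, Plekhg4 (-1.13) from cortex, and Fam107b from both (-1.11 and -0.91). Dnase2a was not tested in cortex. Without wild-type array 4, Cidea and Dnase2a against striatum and Plekhg4 against cortex were no longer called (limma adjusted p = 0.0567, 0.108 and 0.132), and neither was Cidea without wild-type array 1 (0.0637), nor Dnase2a or Plekhg4 without wild-type array 2 (0.0506 and 0.0594). In striatum Rasd2 averaged 14.37 ± 0.14 on transgenic and 14.37 ± 0.18 on wild-type arrays, so its striatal level was far above the cerebellar one and did not pass the test there.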

How the data were processed

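Total RNA from cerebellum, striatum and cortex was extracted with Trizol, labelled with biotin and hybridised to Illumina bead arrays, per the labels. The deposited table holds non-normalized probe intensity values, for which the submitters' processing notes name BeadStudio. A log2 table deposited by the authors differed from quantile-normalized log2 intensities by at most 0.0115, with array medians of 7.25 to 7.26, and was used as an alternative. The files give no detection p-values. The number of arrays limits the precision.

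Intensities of 24613 probes on 47 arrays were corrected with normexp (offset 50), quantile-normalized and put on the log2 scale. Gene symbols came from the platform annotation: 20984 probes had 1 symbol, 1 had several and 3628 had none, and 20968 were matched in the RefSeq table of GRCm38.p6. The probe with the highest mean stood for each gene, and genes above the 40th percentile of cerebellar means (6.77) were tested. Groups were compared with limma 3.58.1 in R 4.3.3 over the 15 cerebellum arrays in 4 groups (11 residual degrees of freedom), and regions over all 47 arrays in 12 groups, with Benjamini-Hochberg adjusted p under 0.05 as the call. The script was tested on simulated data. Named genes were the 15 largest called rises and 15 largest called falls with a symbol and without overlap, up to 3 members per list with the smallest p, a fixed set (Htt, Hdac1, Hdac3, Calb1, Pcp2, Itpr1, Gabra6, Gfap, Mbp, Aif1 and 10 genes called earlier; Itpr1 had no probe with that symbol), the 5 largest called differences between regions in each direction, and the 3 smallest p of a comparison without calls. The members and the 36 lists were chosen with earlier results of these data known. The table holds 1 further cerebellum column that belongs to no sample in the labels, and it was left out. The alternatives varied background correction, scaling, filter, probes, arrays in the fit, BeadChip, sex and replicate number.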

Additional observations from a re-analysis of the deposited data

Results flagged for a closer look

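Among 126 groups of 4 values examined for a stray array, 8 held one, where chance gives about 1 in 20. On transgenic array 1, Mvd read 9.84, Tesc read 12.14 and Mslnl read 7.21 log2 units, apart from the other transgenic arrays, whose nearest values were 8.77, 11.21 and 7.41. On the same array the mean level of oligodendrocyte precursor genes was 9.51, of microglia and complement genes 9.64, and of cholesterol synthesis genes 9.86. On transgenic array 3, Cbx2 read 7.52 and Htt read 8.52, below the other transgenic arrays.

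The genotype difference in cerebellum departed from that in striatum for 104 genes and from that in cortex for 43, by a direct limma test of the difference between regions. Against striatum, the difference was more positive in cerebellum for Ddit4l (1.68), Tesc (1.496), Scn11a (1.45), Ryr1 (1.40), Kcnk2 (1.32), Igfbp4 (1.28), Onecut2 (1.26), Cdkn2b (1.23), Mvd (1.22), Acta1 (0.94), Cidea (0.89), Jund (0.80) and Igsf10 (0.71). Ddit4l, Tesc and Ryr1 were lower in transgenic striatum, by -2.004, -0.97 and -1.76, and were not called in cerebellum. The difference was more negative in cerebellum for Irx5 (-1.66), Pcdh20 (-1.64), Cpne6 (-1.52), Tnnt2 (-1.25), Tmem200a (-1.21), Rasd2 (-1.18), Fam107b (-1.11) and Dnase2a (-1.10). Irx5, a homeobox gene, was 1.37 higher in transgenic striatum.

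Against cortex, the difference was more positive for Cdkn2b (1.29), Igfbp4 (1.26), Mvd (1.25), Alox12b (1.22), Acta1 (1.16), Kcnk2 (1.07) and Igsf10 (0.81). It was more negative for Hoxb5 (-5.04), Tal1 (-3.18), Twist1 (-2.23), Shox2 (-2.01), En2 (-1.74), Cpne6 (-1.65), Irx5 (-1.56), Plekhg4 (-1.13) and Fam107b (-0.91). The developmental transcription factor genes Hoxb5, Tal1, Twist1, Shox2 and En2 were higher in transgenic cortex by 3.41, 2.31, 2.43, 2.06 and 1.66 and were not called in cerebellum. Without wild-type array 1 the value for Hoxb5 was -2.96, and without wild-type array 4 the value for Tal1 was -2.55. Several of the genes named against either region were no longer called when 1 wild-type array was left out. Without array 1 these were Cpne6 against cortex (-0.98, limma adjusted p = 0.121) and striatum (-0.85, limma adjusted p = 0.167), Shox2 against cortex (-1.73, limma adjusted p = 0.123), and Cidea (0.85, limma adjusted p = 0.0637) and Jund (0.66, limma adjusted p = 0.0803) against striatum. Without array 2 they were Igfbp4 (0.98, limma adjusted p = 0.0554) and Plekhg4 (-0.98, limma adjusted p = 0.0594) against cortex and Dnase2a against striatum (-1.02, limma adjusted p = 0.0506). Without array 4 they were Mvd against cortex (1.10, limma adjusted p = 0.0725) and striatum (1.07, limma adjusted p = 0.0561), Plekhg4 (-0.99, limma adjusted p = 0.132) and Shox2 (-2.08, limma adjusted p = 0.0653) against cortex, and Cidea (0.91, limma adjusted p = 0.0567) and Dnase2a (-1.03, limma adjusted p = 0.108) against striatum.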

How the results depend on the processing

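The count of 83 depended on the spread estimate and on single wild-type arrays. No called gene changed sign in 23 settings, but many of these settings could not change a sign. Leaving out arrays cannot reverse groups that do not overlap, and settings of the filter or the spread leave the difference as it was. The count was 49 with median scaling, 49 with array weights, 3 with the 7 compared arrays alone, 525 with all 47 arrays, 276 with BeadChip as a fixed block over 47 arrays and 5 over the 15 cerebellum arrays, and 24 to 135 leaving out 1 array. For 37 named called genes, 678 of 885 alternative values were still called and 207 were not, all in the same direction. Titles share replicate numbers, and same-numbered deviations correlated at 0.10, -0.06 and 0.21, beside -0.20 to 0.099 for arrays with different numbers. So few values cannot decide whether the numbers pair the arrays. With the replicate block the count was 58, of which 51 were shared. The cause of these shifts was not tested.

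In 4b-treated cerebellum 174 became 89 with median scaling, 1061 with array weights, 621 with the compared arrays alone, 463 with BeadChip over 47 arrays, 106 with the replicate block and 42 to 116 leaving out 1 array. The difference between treatments called 5 genes without wild-type arrays 1 and 4, an alternative chosen after seeing the data, and for it the compared arrays are those of the reported fit, so that alternative was not run separately. Against striatum 104 became 30 with median scaling, 13 with the compared arrays alone, 68 with BeadChip, 50 without wild-type arrays 1 and 4, and 68 to 318 leaving out 1 array. Against cortex 43 became 28 with array weights, 6 with the compared arrays alone, 19 with BeadChip and 27 to 132 leaving out 1 array.

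Of 1262 alternative values for 53 named genes that were not called, 52 were called and 31 had the opposite sign. Median scaling gave -0.011 for Aif1, 0.045 for En2, 0.036 for Hdac3 and 0.058 for Mbp, and array weights -0.26 for Aif1. BeadChip over 47 arrays gave -0.055 for Aif1, 0.10 for En2 and 0.019 for Gabra6, and over 15 arrays 0.0084 for En2, 0.072 for Gabra6, 0.026 for Gfap and 0.0078 for Tnnt2. Leaving out 1 array gave ranges across 0, of -0.25 to 0.24 for Aif1, -0.27 to 0.060 for En2, -0.51 to 0.089 for Gabra6, -0.34 to 0.090 for Gfap, -2.72 to 0.44 for Hoxb5, -0.094 to 0.050 for Htt, -0.058 to 0.27 for Pcp2, -0.17 to 0.33 for Shox2 and -0.35 to 0.20 for Tnnt2. Without wild-type arrays 1 and 4 Gfap was 0.043, Hoxb5 0.52, Pcp2 -0.22 and Tnnt2 0.25.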

Other observations

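Neighbouring genes were called lower together in 4 pairs, by gene order in RefSeq (GRCm38.p6) with tested genes only counted between them. How many such pairs would arise by chance was not tested. Mobp and Myrip, a myosin-associated gene, lay side by side with differences of -1.17 and -0.46. Mrm1, a mitochondrial ribosomal RNA methyltransferase gene, and Dhrs11, a dehydrogenase gene, also lay side by side with -0.59 and -0.73. Fam107b and Ccdc3 had 3 tested genes between them, as did F2rl3 and Rasd2, with -0.53 for F2rl3. The transgenic mean of F2rl3 (6.58) lay within background, against 7.10 on wild-type arrays. F2rl3 was no longer called without wild-type array 4 (-0.45, limma adjusted p = 0.125). Neither were Myrip, Mrm1 and Dhrs11 (limma adjusted p = 0.0603, 0.164 and 0.0619).

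Other probes gave a reading of the called genes that the choice of 1 probe per gene did not use. Of the 83, 13 had other probes, 22 in all, and 16 of these passed the filter. All 16 differed in the same direction as the probe reported. Of all 22, 18 did so. The exceptions did not pass the filter and were probes of Oas1g (-0.12), Syt6 (0.096 and 0.047) and Ovgp1 (0.15). The other probes share the 7 arrays with the probe reported and are no independent samples.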
